A study of Mus musculus with 4 samples.

Results

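Long intergenic noncoding RNAs (lincRNAs) are transcripts that carry no long open reading frame and lie between protein-coding genes. Some of them stay in the nucleus, where Neat1 scaffolds the bodies called paraspeckles, Malat1 gathers in nuclear speckles and Xist coats the inactive X chromosome. Most others are known only as stretches of chromatin marked as transcribed or as assembled transcripts, are scarce in the cell, and are often specific to a cell type. Their genes frequently sit beside those of developmental regulators, and a lincRNA can act on, be read from the same promoter as, or simply lie next to its neighbour.

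The mouse gene expression array of the study carried 16251 probes for lincRNAs among 55681 probes other than control spots. They were taken as the probes whose identifier starts with A_30_P or whose gene name starts with lincRNA, and each was a 60-mer in 1 spot. The 8150 of them (50.2%) that were well above background on at least 1 array, by the flag of the scanner software, are described here and called detected lincRNA probes. They made up 22.9% of the 35546 probes of any kind that passed that filter, and the other 27396 serve as the comparison. The array annotation gave an interval and a strand in mm9 for each probe in place of a gene name. There were 3555 such intervals, of which 1067 were probed on both strands, so that 4622 intervals were counted per strand, with a median of 3 probes each and at most 10. The median interval was 10676 bp long, with quartiles of 1765 and 25866 bp. Detected probes fell in 2792 intervals. Probes of 1 interval often sat side by side or overlapped, so they share a target and are not replicates of a condition. A position on mm9 was given for 8084 of the detected probes, and 57 probes carried 1 of 12 lincRNA names, with 35 of these detected.

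The RNA came from cardiac mesenchymal progenitors (CMPs), Sca-1+ cells grown from the hearts of adult C57BL/6 mice. The control was untreated CMPs at day 0, kept in DMEM/F12 with FBS and bFGF. OSKM-CMPs had received Oct3/4, Sox2, Klf4 and c-Myc from Sendai virus. They were then held for 4, 6 or 8 days in a medium with serum replacement and, per the paper, more FBS than the control's. Each condition was 1 array of 1 RNA sample, so no difference between conditions has a replicate check and no test was made. The virus, the medium and the time in culture all separated the control from the OSKM-CMPs and cannot be told apart.

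All 4 arrays lay on 1 slide and were read in 1 scan. A level is the log2 of the processed Cy3 signal minus the array's own 75th percentile, so that 0 is that percentile, and it can be set between arrays but not between probes. A change is the level at a given day minus the level in the control. Errors (±) of single probes are 1 SD from the error model of the scanner software, which covers the spot and the array surface but neither cultures nor RNA preparation. A change was counted when it reached 2-fold, which is 1 on the log2 scale. The labelled cell type was checked against its markers: all 8 mesenchymal progenitor markers, Ly6a (Sca-1) among them, were detected on every array, with a summed level between 8.14 and 8.70. Single markers moved apart under that sum, which adds different probes. At day 8 the changes were 2.69 for Ly6a and 0.71 for Pdgfra. They were -1.78 for Thy1, -1.35 for Itgb1, -1.19 for Eng, -0.61 for Vcam1, -0.51 for Cd44 and -0.36 for Pdgfrb. Of 6 adipocyte markers, 1 was detected in the control and all 6 at day 8, and their summed level went from 1.31 in the control to 4.28, 6.99 and 8.31 at days 4, 6 and 8. On each array 3 to 6 of 7 cardiomyocyte, 4 to 5 of 5 endothelial and 4 to 6 of 7 leukocyte markers were detected, with summed levels of 2.07 to 3.59, 0.15 to 0.83 and 0.15 to 0.48. In RNA from whole cultures, fewer cells of a type and less RNA per cell cannot be told apart, and the part of the adipocyte markers' rise in the changes given here was not tested.

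Sequences are given for the detected probes on which the results turn. The first set holds the largest rises. A set of 3 probes lay end to end on the forward strand of chromosome 9, at chr9:78116774-78116833, chr9:78116834-78116893 and chr9:78116894-78116953, with Gsta1 as the nearest named gene. Single probes lay on the reverse strand at chr6:36789211-36789270, near Dgki, on the forward strand at chr13:53113669-53113728, near Nfil3, and on the reverse strand at chr1:93755485-93755544, near Twist2. All sequences read 5′ to 3′ on the strand given with the position, and capitals mark only bases shared with another probe named in the text.
A_30_P01020518 (near Gsta1): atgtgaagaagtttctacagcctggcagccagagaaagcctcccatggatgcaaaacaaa
A_30_P01018914 (near Gsta1): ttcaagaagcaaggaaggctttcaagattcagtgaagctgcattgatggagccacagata
A_30_P01028766 (near Gsta1): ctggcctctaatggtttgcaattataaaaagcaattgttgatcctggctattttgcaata
A_30_P01026727 (near Dgki): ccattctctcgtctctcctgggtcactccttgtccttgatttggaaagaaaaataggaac
A_30_P01032168 (near Nfil3): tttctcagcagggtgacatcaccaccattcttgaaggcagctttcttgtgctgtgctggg
A_30_P01033160 (near Twist2): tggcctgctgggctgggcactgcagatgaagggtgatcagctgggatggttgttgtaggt

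A pair near Gm12216 on chromosome 11 shows how closely probes of different intervals can overlap. They lay on the reverse strand at chr11:53596962-53597021 and chr11:53596980-53597039, and the capitals mark the 42 bases that both carry.
A_30_P01030888: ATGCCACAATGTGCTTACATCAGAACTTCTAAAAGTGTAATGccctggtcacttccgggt
A_30_P01031674: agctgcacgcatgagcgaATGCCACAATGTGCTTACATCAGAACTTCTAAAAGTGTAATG

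The second set holds the falls. The probe near Trmt44 lay at chr5:35898839-35898898 on the forward strand and the one near Morrbid at chr2:128142132-128142191 on the reverse strand. The Foxd2os probe, at chr4:114588837-114588896 on the forward strand, repeats all 60 bases of an array probe for that gene. The Eldr probes, on the reverse strand at chr11:16835628-16835687 and chr11:16835674-16835733, share 57 and 11 bases with the array's Eldr probe, in capitals.
A_30_P01033054 (near Trmt44): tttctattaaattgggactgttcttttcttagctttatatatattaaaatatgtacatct
A_30_P01018351 (Foxd2os): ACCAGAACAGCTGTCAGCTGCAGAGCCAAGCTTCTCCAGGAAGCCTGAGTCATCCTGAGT
A_30_P01026217 (Eldr): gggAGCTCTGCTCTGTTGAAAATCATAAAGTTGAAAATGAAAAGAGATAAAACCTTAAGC
A_30_P01030698 (Eldr): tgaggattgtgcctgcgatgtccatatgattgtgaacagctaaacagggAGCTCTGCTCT
A_30_P01029173 (near Morrbid): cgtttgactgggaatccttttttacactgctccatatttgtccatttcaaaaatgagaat

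The third set stands for lincRNAs known by name. NEAT2 is another name of Malat1. The capitals mark the bases shared with the array's separate probe for the gene, 30 in NEAT1 and all 60 in NEAT2. The XIST and H19 probes lay on the reverse strand at chrX:100655839-100655898 and chr7:149762173-149762232, the NEAT1 and NEAT2 probes on that strand at chr19:5842534-5842593 and chr19:5795713-5795772. A further pair of probes lay inside the interval of NEAT2 but carried no name, at chr19:5798256-5798315 and chr19:5802130-5802189 on its strand. The last 3 are the probes near Cdkn1a (chr17:29207178-29207237, reverse strand), Dleu2 (chr14:62280942-62281001, reverse strand) and C430049B03Rik (chrX:50408177-50408236, reverse strand).
NEAT1 A_30_P01021631: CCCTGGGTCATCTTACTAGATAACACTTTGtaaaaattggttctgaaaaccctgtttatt
NEAT2 A_30_P01019221: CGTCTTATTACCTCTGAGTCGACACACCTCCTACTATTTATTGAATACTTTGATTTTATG
within the NEAT2 interval A_30_P01020935: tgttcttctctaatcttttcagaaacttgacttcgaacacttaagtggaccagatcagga
within the NEAT2 interval A_30_P01031754: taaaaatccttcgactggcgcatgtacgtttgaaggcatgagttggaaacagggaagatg
XIST A_30_P01023652: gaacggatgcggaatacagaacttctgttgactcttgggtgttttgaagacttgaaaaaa
H19 A_30_P01026972: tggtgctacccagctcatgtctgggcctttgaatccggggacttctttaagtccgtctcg
near Cdkn1a A_30_P01027010: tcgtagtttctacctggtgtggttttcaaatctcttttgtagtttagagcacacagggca
near Dleu2 A_30_P01019014: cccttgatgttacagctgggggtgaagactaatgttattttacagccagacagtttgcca
near C430049B03Rik A_30_P01027665: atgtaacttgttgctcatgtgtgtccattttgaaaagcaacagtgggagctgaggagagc

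The share of lincRNA probes detected was lower than that of other probes on every array. In the control 6558 of them (40.4%, exact binomial 95% interval 39.6 to 41.1) were well above background, at day 4 there were 6544 (40.3%, 39.5 to 41.0), at day 6 there were 6462 (39.8%, 39.0 to 40.5) and at day 8 there were 7275 (44.8%, 44.0 to 45.5). The shares of all other probes were 63.2%, 64.1%, 63.7% and 65.8% in the same order. The intervals cover counting error only. The 3 earlier arrays were close to each other, and the day 8 array held the most detected lincRNA probes. The detection limit was also lowest there: the dimmest probe well above background had a level of -5.31 at day 8, against -5.22, -5.18 and -5.13 in the control and at days 4 and 6. The 8101 lincRNA probes detected on no array had a median change of -0.07 at day 8, and the 308 negative control spots one of -0.08, against 0.05 and 0.04 at day 4. The part of this limit in the day 8 count was not tested.

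Of the detected lincRNA probes, 5486 (67.3%) were well above background on all 4 arrays, against 85.1% of the other detected probes. A further 557 (6.83%) were so at day 8 alone, 382 (4.69%) on the 3 OSKM-CMP arrays but not in the control, and 359 (4.40%) in the control alone. Among other probes these last 3 patterns held 1.99%, 3.39% and 2.37%. Of the 4622 intervals per strand, 1273 had every probe detected, 1071 had none and 2278 had some of each.

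The share detected was 47.6% among probes within 500 bp of the 3′ end of their interval and 52.3% among those more than 10 kb from it. The median GC content was 45.0% for probes detected on all arrays (quartiles 41.7% and 53.3%) and 43.3% for those detected on none (quartiles 36.7% and 45.0%). The polyadenylation hexamer AATAAA was scored as present or absent in each probe, on the probe's own strand. It stood in 3.77% of lincRNA probes detected on all arrays and in 4.02% of those detected on none. It stood in 13.7% of the other detected probes and in 10.1% of all probes.

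On the main scale more detected lincRNA probes were higher than lower at each day. At day 4, 936 (11.5%) were at least 2-fold higher than in the control and 634 (7.78%) at least 2-fold lower, where 11.2% and 8.5% of all detected probes of the array were. At day 6 the counts were 1027 (12.6%) and 725 (8.90%), against 12.4% and 10.6%. At day 8 they were 1409 (17.3%) and 566 (6.94%), against 14.9% and 10.3%. The shares of lincRNA probes were thus near those of the whole array at days 4 and 6, and at day 8 the share of rises was above and that of falls below them. Of the day 8 counts, 1119 and 453 also passed 2 errors of the difference.

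The balance of rises and falls depended on the scale. At day 4 the array median gave 777 higher and 788 lower and at day 6 859 and 915, so that on these days the direction turned. With the array's 75th percentile as the scale, 71.3% of the 2-fold calls at day 8 were rises. With quantile normalization 57.8% were (1097 against 800), with the array median 54.3% (1024 against 863) and with normexp background correction followed by quantile normalization 63.6% (180 against 103). Under the array median the median of all detected probes itself moved by -0.14, -0.16 and -0.26 at days 4, 6 and 8. The median change of the detected lincRNA probes was 0.02, 0.02 and 0.14 at days 4, 6 and 8 on the main scale, and at day 8 it was -0.04 for other detected probes.

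The shares also moved with signal. In the dimmest of 4 equal groups of the detected lincRNA probes by signal, 26.4% were at least 2-fold higher and 15.3% at least 2-fold lower at day 8, where other probes within the same limits of signal gave 28.6% and 21.6%. In the next groups the shares of rises were 17.0% and 14.5%, against 21.7% and 20.2% of other probes, and in the brightest 11.1%, against 9.28%. At like signal the share of rises was therefore below that of other probes in 3 of 4 groups, and the share of falls was below it in all 4, with 5.69% against 10.2% in the brightest. Restricted to the 5486 lincRNA probes above background on all arrays, the counts at day 8 were 607 higher (11.1%) and 217 lower (3.96%), where other probes of that kind gave 10.1% and 9.92%.

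**Figure D1:**
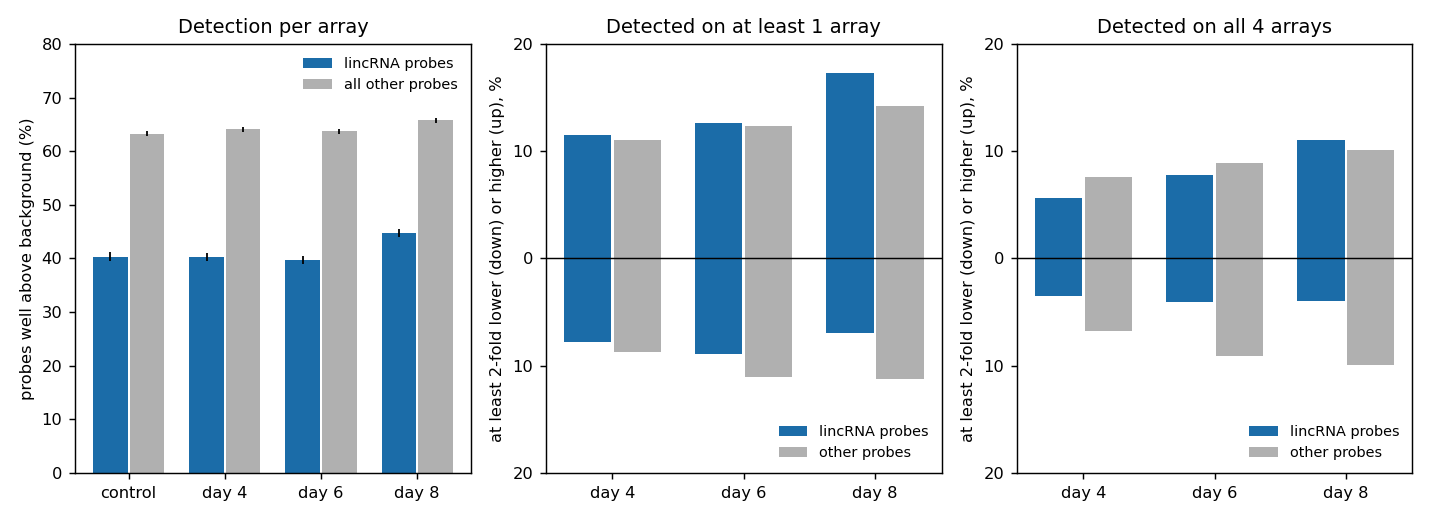
Left, the share of lincRNA probes (blue) and of all other probes (grey) well above background on each of the 4 arrays, with exact binomial 95% intervals as bars. Middle and right, the share of detected probes at least 2-fold higher (upward bars) or lower (downward bars) than in the control at each day, for probes detected on at least 1 array and on all 4. The share of lincRNA probes detected was the lower one on every array, and at day 8 they had 6.94% lower calls where other probes had 11.2%.

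Between the OSKM-CMP arrays fewer probes moved. From day 4 to day 6, 309 detected lincRNA probes were at least 2-fold higher and 353 at least 2-fold lower, with 2.93% and 3.09% over the whole array, and 45 and 19 of them were above background on all arrays. From day 6 to day 8, 547 were higher and 163 lower, with 3.7% and 1.34% over the whole array, and 47 and 25 were above background on all arrays. From day 4 to day 8 the counts were 691 and 239, with 5.78% and 3.54% over the whole array. Most of the rises after day 6 were in probes that some array did not detect.

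Over the whole time course 2763 detected lincRNA probes (33.9%) were past 2-fold on at least 1 day. An early rise, past 2-fold at day 4 and still so at day 8, was seen in 731 (8.97%), and a late rise, first past 2-fold after day 4 and so at day 8, in 678 (8.32%). Early falls numbered 347 (4.26%) and late falls 219 (2.69%). Changes present at day 4 or 6 but not at day 8 numbered 302 (3.71%) upwards and 486 (5.96%) downwards. Among other detected probes 68.9% were below 2-fold on all days, against 66.1% of lincRNA probes, and early rises made up 8.91%, early falls 6.77%, late rises 5.27%, late falls 4.47%, passing rises 2.67% and passing falls 3.02%. Of the early rises, 101 were another 2-fold higher at day 8 than at day 4, and 34 of the early falls were another 2-fold lower.

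The largest rises were at the Gsta1 locus. Gsta1 encodes an alpha class glutathione S-transferase, a detoxifying enzyme. It belongs to a family of similar genes in a cluster, so RNA of a close relative could hybridise to the same probe. Only the array annotation calls the probes here lincRNA. They could lie in exons of a gene of this family, which was not tested. A_30_P01028766 had a level of -3.71 in the control and of 3.40, 3.46 and 4.29 at days 4, 6 and 8. It was low in the control and high on all 3 OSKM-CMP arrays, and its change at day 8 was 8.00 ± 0.23. The neighbouring probes A_30_P01020518 and A_30_P01018914 had changes of 7.30 ± 0.22 and 7.03 ± 0.21. The 3 lay 26.4 to 26.5 kb from the Gsta1 probe on the same strand, whose own change was 6.86, 6.83 and 7.87 at days 4, 6 and 8. On the other strand of the same interval all 5 probes were below background in the control and above it on every OSKM-CMP array, and they were at least 4.23 to 8.62-fold higher at day 8.

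Near Dgki, a diacylglycerol kinase gene, A_30_P01026727 had a level of -2.18 in the control and of 2.10, 2.48 and 3.08 at days 4, 6 and 8, a change of 5.26 ± 0.21 at day 8. All 6 detected probes of 2 neighbouring intervals on this strand were higher at day 8. The 5 besides A_30_P01026727 were not above background in the control, with bounds of at least 1.90-fold to at least 11.1-fold at day 8, the last for A_30_P01033037. Both Dgki probes were also below background in the control and above it at days 4 and 6, but 1 of them was above it at day 8, where A_30_P01026727 was highest.

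A_30_P01032168, 51.1 kb from Nfil3 on the opposite strand, had a level of -4.86 in the control and of -0.45, -0.57 and -0.62 at days 4, 6 and 8. Its whole rise was there at day 4, and the change at day 8 was 4.24 ± 0.35, whereas Nfil3, a transcription factor gene, had one of 0.16. In the same interval A_30_P01031939, 50.9 kb from Nfil3, was at least 9.55-fold higher at day 8. A_30_P01021268, on that strand in an overlapping interval and 49.0 kb from Nfil3, had a change of 0.02.

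A slower rise was seen 10966 bp from Twist2, which encodes a basic helix-loop-helix factor of mesenchymal cells. A_30_P01033160 had a level of -3.42 in the control, then of -2.66, -1.11 and 0.44 on the day 4, 6 and 8 arrays, higher on each later array, and its change at day 8 was 3.86 ± 0.23. Twist2 itself, read from the other strand, had changes of 1.24, 1.35 and 1.17. The next probe along the same strand, A_30_P01022105, which starts where the first ends, had a change of only 0.34 ± 0.21. Adjacent probes of an interval thus did not always move together.

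Near Gm12216, a lncRNA gene on chromosome 11, 7 of 8 detected probes on its strand were at least 2-fold higher at day 8, of which A_30_P01024810, below background in the control, has a bound of at least 1.60-fold. A_30_P01030240 had a level of -4.86 in the control and of -2.37, -1.48 and -1.17 at days 4, 6 and 8, a change of 3.69 ± 0.34. A_30_P01030888 had a change of 3.39 ± 0.28, and A_30_P01031674, which shares 42 bases with it, was at least 11.1-fold higher. The exception among the 8 was A_30_P01019936, in the same interval as the first pair, with a change of -0.66. The Gm12216 probe, 2.0 kb away, had one of 0.88. The remaining pair among the 10 largest rises, A_30_P01020627 (3.40 ± 0.20) and A_30_P01018420 (3.28 ± 0.21), belonged to the interval chr3:87757295-87774970 and had no position of their own.

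The largest fall was that of A_30_P01033054, 1.2 kb from Trmt44 on the opposite strand. Its level was 1.26 in the control and -0.48, -1.60 and -2.21 at days 4, 6 and 8, lower on each later array. The change at day 8 was -3.47 ± 0.21, while Trmt44, a tRNA methyltransferase gene, had one of -0.36.

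Several falls went with those of a named neighbour. Near 2700099C18Rik, a transcribed pseudogene, A_30_P01019123 and A_30_P01017632 had changes of -3.20 and -2.80 at day 8, about 13 kb from a gene probe with -3.22. A_30_P01018351, identical to the Foxd2os probe, had a level of -0.42 in the control and of -2.37, -3.24 and -3.62 at days 4, 6 and 8, a change of -3.20 ± 0.22 beside -3.13 for the gene. The Eldr probes A_30_P01030698 and A_30_P01026217 both had changes of -2.71, beside -1.66 for the gene. Near H2ac15, a histone H2A gene, A_30_P01023737 had a change of -2.81, beside -1.63 for the gene 12.8 kb away.

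Near Ccn1, a matricellular protein gene that is switched on by serum and by mechanical strain, the fall was not steady. A_30_P01018850 had a level of -1.57 in the control, then of -4.48, -3.24 and -4.29 on the day 4, 6 and 8 arrays. All 3 detected probes of this interval were lower at day 8, with changes of -2.72 to -1.78, and the Ccn1 probe on the opposite strand, 4.7 to 4.8 kb away, had changes of -3.47, -1.75 and -3.47. Both were least reduced at day 6. Morrbid, a lncRNA known from the control of myeloid cell lifespan, was lower at every day: A_30_P01029173 had a level of 1.00 in the control and of -2.17, -1.80 and -1.69 at days 4, 6 and 8. The 3 detected probes of that interval lay 0.2 kb or less from the Morrbid probe and had a mean change of -3.04, -2.91 and -2.61, and the gene probe one of -2.93, -3.01 and -2.68.

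**Figure D2:**
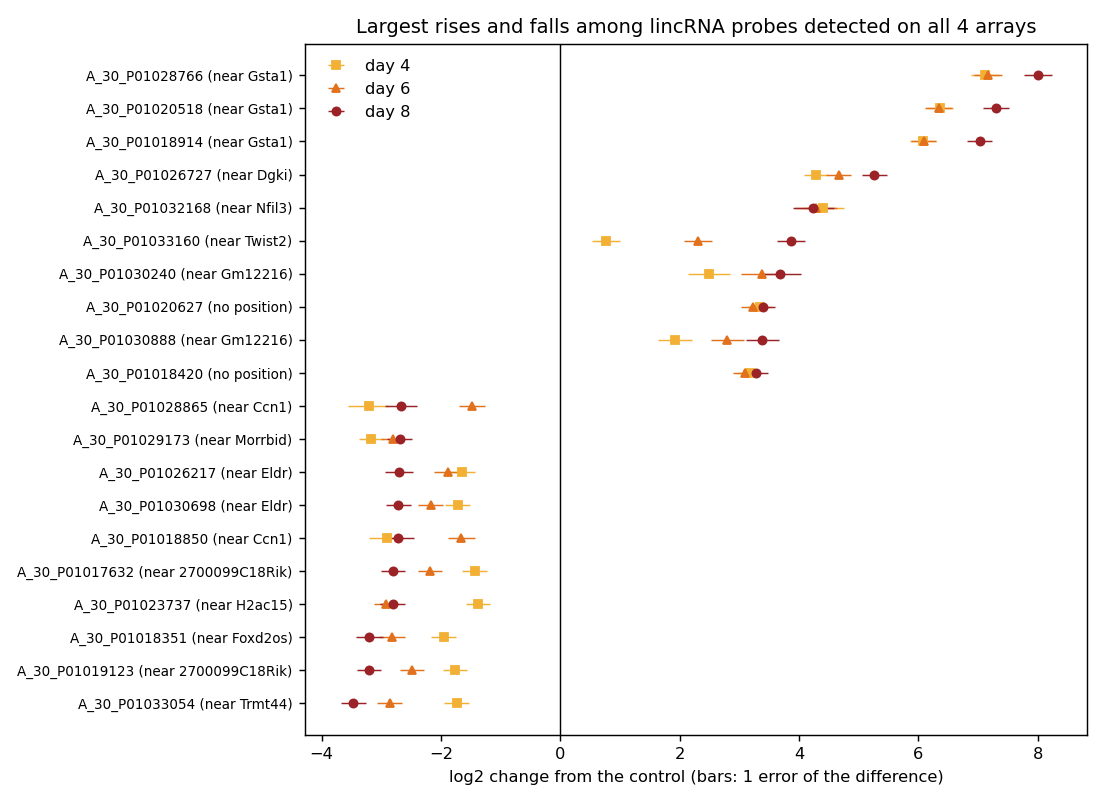
The log2 change from the control at days 4, 6 and 8 for the 10 largest rises and the 10 largest falls at day 8 among lincRNA probes detected on all 4 arrays and changed the same way at every day. Bars are 1 error of the difference from the scanner software, and the nearest named gene stands beside each probe. The 3 probes near Gsta1 lie at 7.03 to 8.00 at day 8, and the falls end at -3.47.

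Probes that crossed the detection limit can be given only as bounds. Of the 382 probes above background on all 3 OSKM-CMP arrays and not in the control, the largest bounds at day 8 were at least 13.8-fold for A_30_P01031958, 1.7 kb from Rorb, an orphan nuclear receptor gene with a change of 2.43, at least 11.97-fold for A_30_P01020231 near Rab11fip4 and at least 11.5-fold for A_30_P01030216 near Dleu2. Of the 359 seen in the control alone, 3 of the large bounds were at least 9.32-fold lower for A_30_P01031626, 275 bp from Zfp955b, at least 8.88-fold for A_30_P01030573 near Wdr89 and at least 7.84-fold for A_30_P01029476 near 6820431F20Rik. The genes beside them had changes of 0.41 (Zfp955b), 0.28 (Wdr89) and 0.60 (6820431F20Rik), none of them a fall. Other probes of these intervals did not repeat the falls. Of the 2 detected probes in the interval near Zfp955b, the other was higher at day 8, with a measured change of 2.42, and was not detected on all arrays. In the interval near 6820431F20Rik 1 of 3 detected probes was at least 2-fold lower, and the interval near Wdr89 had only 1 probe.

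Peaks at day 4 were looked for among lincRNA probes above background in the control and at days 4 and 8. In 9 of these the level at day 4 was at least 2-fold above both the control and day 8. A_30_P01027665 had a level of -2.93 in the control, then of -1.45, -2.25 and -3.12 on the day 4, 6 and 8 arrays, so that only the day 4 and 6 arrays stood above the control. It lay 1.2 kb from the probe of C430049B03Rik, a lncRNA gene that hosts a cluster of microRNAs on the X chromosome, which had changes of 1.61, 0.32 and -0.26. All 3 probes of that interval had the same course, with mean changes of 1.31, 0.36 and -0.36. In the overlapping interval on this strand, A_30_P01032068 peaked at day 4 as well, at 3.57 ± 0.28, and was still 2.18 above the control at day 8. The other 2 of the 5 largest peaks, A_30_P01018046 and A_30_P01018799, had changes at day 4 of 1.34 and 1.46 and lay 128.1 and 69.4 kb from Sgms2 and Cerk.

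Of the lincRNAs known by name, 5 had every probe detected on all arrays, and the probes of each moved together. NEAT1 was higher at every day: the probe A_30_P01021631 had a level of 1.38 in the control and of 2.78, 2.76 and 3.04 at days 4, 6 and 8, and the mean change over its 5 probes was 1.37 ± 0.05, 1.30 ± 0.09 and 1.63 ± 0.06 (SD over probes). XIST was higher from day 4 on, with levels of 1.74, 2.94, 3.29 and 3.21 for A_30_P01023652 and mean changes of 1.14 ± 0.04, 1.47 ± 0.05 and 1.39 ± 0.06 over 5 probes. TUG1, a widely expressed lincRNA, stayed under 2-fold, with mean changes of 0.38, 0.63 and 0.67. The separate gene probes of Neat1, Xist and Tug1 had mean changes of 1.30, 1.07 and 0.37 at day 8. The 2 Xist gene probes ranged from 0.68 to 1.47, and the 3 Tug1 gene probes went both ways, from -0.53 to 1.01.

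H19, an imprinted transcript of growing tissue that is expressed from the maternal allele, was highest at day 6. A_30_P01026972 had a level of -2.57 in the control, then of -1.93, -1.50 and -2.48 on the day 4, 6 and 8 arrays, so that the control and day 8 arrays were alike. The mean change over its 5 probes was 0.49 ± 0.12, 0.98 ± 0.08 and 0.02 ± 0.15, and the H19 gene probe had 0.66, 1.10 and 0.09. At day 8 the sign of the H19 mean depended on the scaling, from -0.24 with the array median to 0.02. Of the other names, Tsix, which runs antisense to Xist, had none of its 5 probes above background on any array, and HOTAIR had 1 of 5 above it on all arrays, with a change of -0.16 ± 0.21 at day 8. KCNQ1ot1 and NRON had 2 probes each on all arrays, with mean changes of -0.21 and -0.23, while the array's 2 separate Kcnq1ot1 gene probes, 1 of them above background on all arrays, had a mean change of 2.05. BRN1-A, PINC and lincP21 had no probe that was detected on every array.

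**Figure D3:**
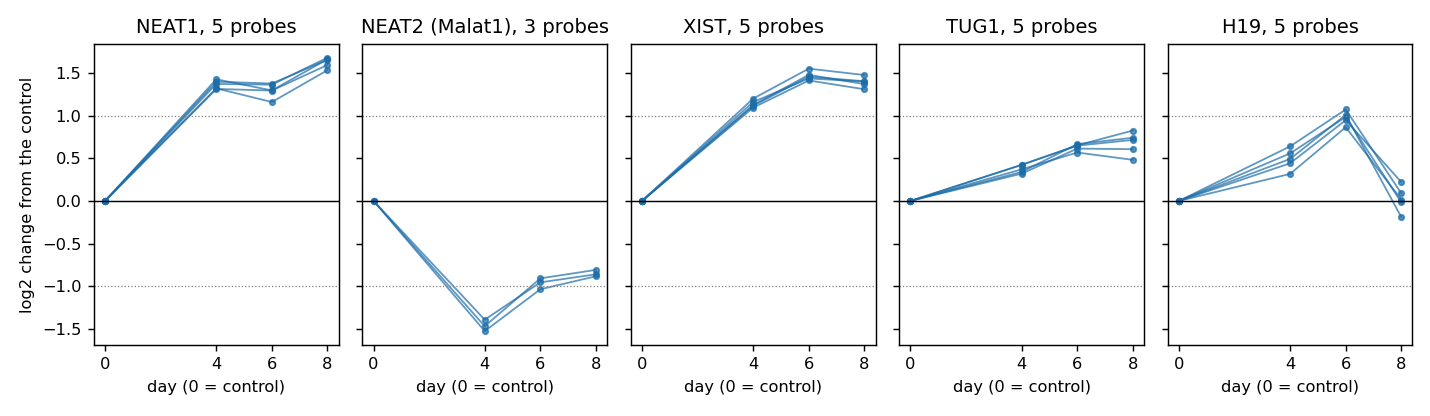
The log2 change from the control against the day, with 1 line for each probe, for the 5 named lincRNAs whose probes were all detected on all 4 arrays. Dotted lines mark 2-fold. NEAT1 and XIST lie above 1 at every day, NEAT2 lies between -1.53 and -0.81, TUG1 stays below 1, and H19 is near 0 again at day 8.

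The probes named NEAT2 were lower at every day, but other probes inside the same interval were higher. A_30_P01019221 had a level of 1.99 in the control and of 0.60, 1.04 and 1.13 at days 4, 6 and 8. The 3 NEAT2 probes and an unnamed probe that overlaps them lay within 0.2 kb of the 3′ end of the interval chr19:5795689-5802671, and their changes were -1.53 to -1.39 at day 4 and -0.88 to -0.80 at day 8. The array's Malat1 gene probe, identical to a NEAT2 probe, had -1.54, -0.96 and -0.82. The other 6 detected probes on that strand within the interval lay 2.6 to 6.6 kb from the 3′ end. A_30_P01020935 had a level of 3.12 in the control and of 3.79, 4.63 and 4.79 at days 4, 6 and 8, and A_30_P01031754 one of 7.17, 7.91, 8.58 and 8.74. Over the 6 the mean change was 0.69, 1.44 and 1.59, with a range of 1.44 to 1.70 at day 8. Against the control the 2 sets of probes thus changed in opposite directions at every day, and a statement on Malat1 from the NEAT2 or gene probes covers only its extreme 3′ end. Among the OSKM-CMP arrays both sets were higher at days 6 and 8 than at day 4. The mean change of the 4 probes at the 3′ end was -1.47, -0.98 and -0.84 at days 4, 6 and 8. The directions against the control held under every scaling tried: at day 8 the mean of the NEAT2 probes lay between -1.12 and -0.75 and that of the 6 others between 1.32 and 1.83. The distance to the 3′ end differed between the sets, and its part in the difference was not tested. This locus was singled out after its values had been seen.

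Probes on 1 strand of an interval had a smaller spread of change than all such probes, but often did not all pass 2-fold together. Of 1375 intervals per strand with at least 2 probes detected on all arrays, the median SD of the change at day 8 within an interval was 0.25, against 0.77 over all 4135 of these probes. At least 1 such probe was at least 2-fold higher in 271 intervals, and every one was in 91. At least 1 was at least 2-fold lower in 108 intervals, and every one was in 17. In 2 intervals probes past 2-fold went both ways. The probes of an interval read the same RNA samples, and adjoining ones nearly the same target.

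Of 307 intervals per strand with at least 4 probes detected on all arrays, 11 had all of these at least 2-fold higher at day 8 and 3 had all of them at least 2-fold lower; they were picked out after the values had been seen. Besides NEAT1 and XIST, the risers included chr5:35975265-35982561, 20.7 kb from Acox3, a gene of peroxisomal fatty acid oxidation, with a mean change of 0.98, 1.31 and 2.17 ± 0.16 (SD over 4 probes) and 0.82 for Acox3 at day 8. Next to the interferon-inducible genes Ifi207 and Ifi204, chr1:175654606-175672031 had 1.08, 1.31 and 1.23 and chr1:175705225-175717250 had 1.52, 1.80 and 1.60, with 2.33 and 1.01 for the genes at day 8. Other neighbours had values of another direction or size than their interval. The interval chr19:59498190-59531390, 1.6 kb from Emx2os, had a mean of 1.40 at day 8, where the 2 Emx2os probes, 1 of them above background in the control, had a mean of -0.53. The interval chr1:92412246-92423471 had 0.81, 1.09 and 1.79, where Cops8 had -0.38. The falls were chr9:14460976-14488051, with -1.07, -1.49 and -1.94 ± 0.05, chr10:117021051-117038683, with -0.86, -1.09 and -2.18 ± 0.14, where Kifc5c-ps had 0.16 at day 8, and chr8:119090566-119097735 near Cdyl2, with -1.23, -1.28 and -1.11, where Cdyl2 had -1.70.

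Among the 5 intervals with the most detected probes, 10 each, the interval chr16:43623581-43642715 was the one that moved. Its 10 forward probes had a median change of 0.13, 0.74 and 1.42 on the day 4, 6 and 8 arrays, with a range of 1.24 to 1.63 at day 8. Its 10 reverse probes had 0.12, 0.65 and 1.17, and 8 of them were past 2-fold at day 8. Under the other scalings the mean at day 8 was 1.15 to 1.51 on the forward and 0.54 to 1.16 on the reverse strand. Both strands of the interval thus moved little by day 4 and later went up together. The nearest named gene, Tigit, an immune receptor gene 8.5 kb away, had no probe above background. In the other 3 intervals, near Zfp652, Smim13 and Hmbox1, the median change at day 8 was 0.24, 0.17 and 0.38, and no probe was past 2-fold.

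**Figure D4:**
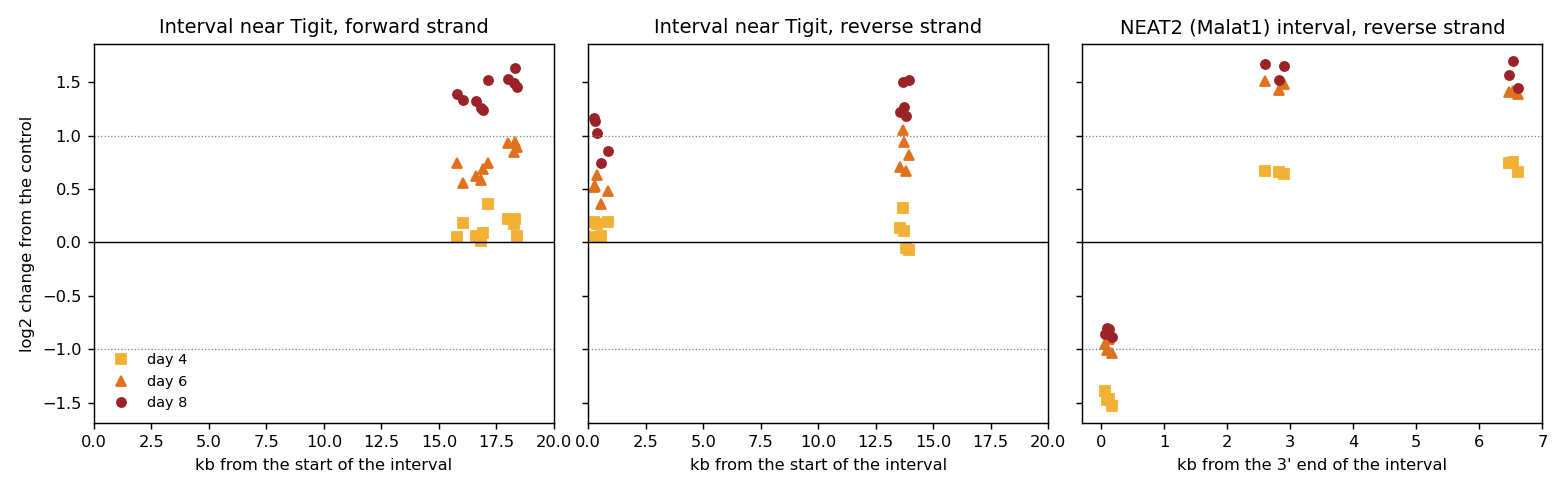
The log2 change from the control for single probes at days 4, 6 and 8 along the interval near Tigit, on the forward and the reverse strand, and along the reverse strand of the NEAT2 (Malat1) interval. The horizontal axes give kb from the start of the interval and from the 3′ end of the NEAT2 interval, and dotted lines mark 2-fold. Probes near Tigit were higher on each later day on both strands, while the 4 probes at the 3′ end, 3 of them named NEAT2, lie below 0 and the 6 probes at 2.6 to 6.6 kb above it.

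Elsewhere the strands of an interval were largely separate. Of the 1067 intervals probed on both strands, 759 had detected probes on both, 254 on 1 strand and 54 on neither. Over the 759, Pearson's r between the mean changes of the strands at day 8 was 0.19, and over the 526 with probes detected on all arrays it was 0.10. These are descriptions across intervals of the same arrays. Both strands were past 2-fold the same way in 24 intervals and opposite ways in 3, and 1 strand alone was past 2-fold in 199.

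Genes near the detected lincRNA probes were found by the closest probe of a named gene. It lay within 50 kb for 6171 of the 8084 placed probes (76.3%), at a median of 17.3 kb over all of them. Of the 5484 pairs within 50 kb in which the gene was also detected, 58.4% changed in the same direction at day 8, 61.6% on the same strand and 54.1% on opposite strands. By distance the share was 68.4% to 5 kb, 54.8% from 5 to 20 kb, 50.2% from 20 to 50 kb, 55.1% from 50 to 200 kb and 58.3% beyond, so that it stood above that of distant pairs in the closest class alone. Of 469 pairs in which both were past 2-fold, 387 (82.5%) went the same way. Seen from the lincRNA side, 28.8% of the 1345 probes past 2-fold had a nearest gene past 2-fold the same way. From 50 to 200 kb these shares were 70.2% and 27.2%.

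The likeness was greatest for close neighbours on the same strand. Within 5 kb, Pearson's r of the changes at day 8 was 0.56 over 1159 pairs on the same strand and 0.24 over 813 on opposite strands. From 5 to 20 kb it was 0.25 and 0.10, from 20 to 50 kb 0.29 and 0.18, and beyond 200 kb 0.14 and 0.06. These values describe pairs on the same arrays, and pairs that share a gene or an interval are not independent. Within 5 kb on the same strand, 143 of the 151 pairs with both past 2-fold (94.7%) went the same way. On that strand the share was 75.6% from 50 to 200 kb. Some of these pairs measure the same RNA: 85 detected lincRNA probes share at least 15 bases with a probe of the named gene, and 27 are identical to one. Without them r within 5 kb on the same strand was 0.53 over 1080 pairs. This filter still leaves pairs that read the same transcript. The XIST probe A_30_P01023652 and the H19 probe A_30_P01026972, for example, share 0 bases with the probes of their own genes. The value of 0.53 is therefore not one for separate neighbours alone.

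**Figure D5:**
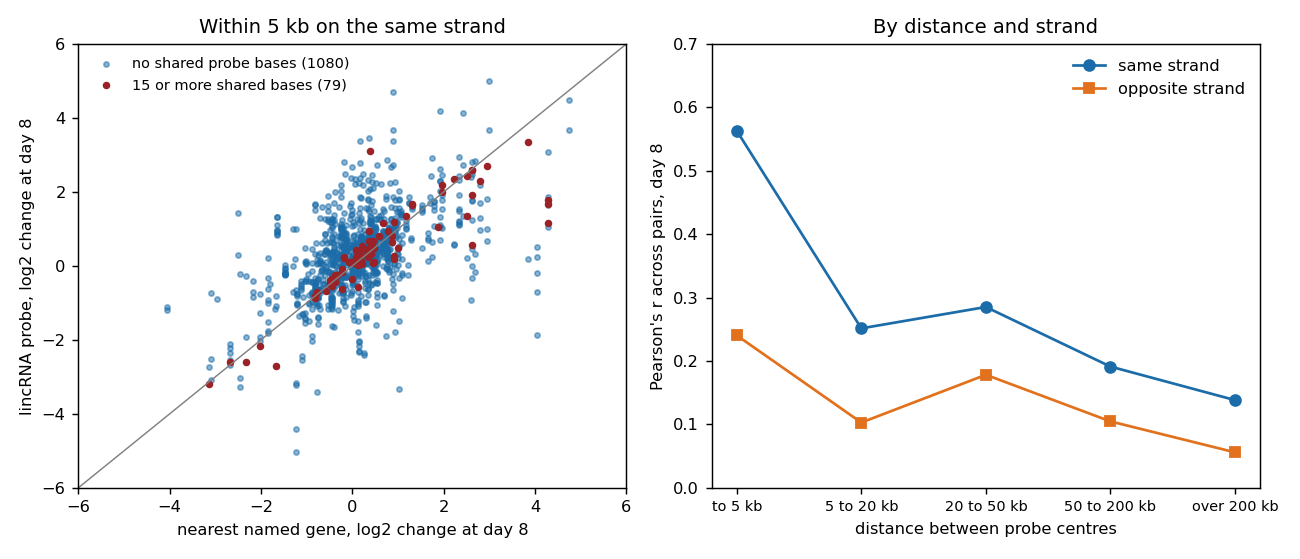
Left, the log2 change at day 8 of each lincRNA probe against that of the nearest named gene, for the 1159 pairs within 5 kb on the same strand, with the 79 pairs that share at least 15 probe bases in red, the other 1080 in blue and 1 pair outside the axes. Right, Pearson's r across pairs by distance between probe centres, for the same and the opposite strand. The correlation is 0.56 within 5 kb on the same strand and 0.06 to 0.29 beyond that distance.

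In the closest pairs past 2-fold the lincRNA probe was identical to a probe of the gene, overlapped it or was placed at its position. The probe identical to that of A830082N09Rik was at least 4.92-fold higher at day 8 and the one identical to that of Gm53 at least 4.31-fold, and the gene probes too were below background in the control. A_30_P01019537 was placed 0 bp from an Ifi207 probe on the same strand, although it shares 0 bases with that gene's probes. It had a level of -0.88 in the control and of 1.47, 1.67 and 1.56 at days 4, 6 and 8. Its change of 2.43 ± 0.20 stood beside 2.33 for the gene, and whether both read the same RNA was not tested. The probes overlapping those of Kifc1, a mitotic kinesin gene, and of D330022H12Rik had changes of -2.17 and 1.99 at day 8, beside -2.03 and 1.96.

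By the roles of the neighbours, genes of the adipocyte programme had few detected lincRNA probes within 50 kb. Of the 49 listed adipocyte genes 4 had any, with 12 probes, of which 1 was at least 2-fold higher and none lower, at a median change of 0.28 where all detected lincRNA probes had 0.14. That probe, A_30_P01031893, was below background in the control and at least 3.40-fold higher at day 8, 27.6 kb from Plin2, a lipid droplet coat gene with a change of 1.33. Klf15, with a change of 2.39, had 3 lincRNA probes between -0.70 and 0.08. Contractile genes had 5 probes near 2 genes, the 1 counted as lower being below background in the control and at day 8, and interferon genes had 10 near Isg15 and Irf1 with none past 2-fold, although Isg15 itself had a change of 1.65. No detected lincRNA probe lay within 50 kb of a listed matrix gene with that gene as its nearest.

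Cell cycle genes had 10 such probes near 3 genes, and 2 of these were higher, where 17.3% of all detected lincRNA probes were. Both lay near Cdkn1a, the p53 target that encodes the cell cycle inhibitor p21, inside the interval that the array gives for lincP21 and on its strand. A_30_P01027010 had a level of -4.80 in the control and of -2.96, -3.29 and -2.08 at days 4, 6 and 8, a change of 2.71 ± 0.35 at day 8. The adjoining A_30_P01020960 had a change of 1.82 ± 0.24, and the next 2 probes along had 0.64 and 0.20. Cdkn1a had one of 0.61 at day 8, and 1 of the 5 probes named lincP21 was detected on any array.

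Developmental transcription factor genes had 55 detected lincRNA probes near 13 genes, with 15 at least 2-fold higher, 7 lower and a median of 0.09, where 17.3% and 6.94% of all detected lincRNA probes were higher and lower. Near Nr2f1 and Nr2f2, genes of the COUP-TF receptors, A_30_P01031047 and A_30_P01020008 were below background in the control and at least 2.57 and 1.26-fold higher at day 8. Of the 8 detected probes near Nr2f1, 2 were higher and 1 lower. Nr2f1 itself had a change of -1.11 at day 8 and Nr2f2 one of 0.88. The probes near Klf4 and Myc, the endogenous loci of 2 of the transduced factors, lay over 49 kb away, and none of these 7 was past 2-fold.

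Known lncRNA genes had the most, 242 detected lincRNA probes near 26 of 73 listed genes, with 68 higher, 6 lower and a median of 0.42, against the 17.3% higher, 6.94% lower and median of 0.14 of all detected lincRNA probes. Many of these probes lie within the gene itself. Near Dleu2, the host transcript of a microRNA pair, 10 of 18 were higher and none lower: A_30_P01019014 had a level of -3.94 in the control and of -2.30, -1.52 and -0.94 at days 4, 6 and 8, a change of 3.00 ± 0.24, beside 1.88 for the gene. Near Neat1, 11 of 20 were higher, and near Airn, an imprinted antisense transcript of the Igf2r locus, 5 of 10 were, with 5 neighbouring probes at 0.90 to 1.29. Near Jpx and Ftx, which lie in the X inactivation centre beside Xist, 3 of 4 and 5 of 7 were higher. None of these rises was in a probe detected on all arrays. The 1 lincRNA probe so detected had a change of 0.66 near Jpx and of -0.36 near Ftx. The Jpx gene probe and 1 of 2 Ftx gene probes were below background in the control.

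Firre, an X-linked lncRNA of nuclear architecture, had 4 probes higher and 4 lower. On its own strand A_30_P01031014 had a change of 2.04 ± 0.25 and the 2 detected gene probes a mean of 1.01, while 3 adjoining probes on the other strand, 2.1 to 2.2 kb away, were above background in the control and below it at day 8, at least 2.88 to 6.95-fold lower. Near Tug1, 2 of 26 were higher. The list's own array probes gave 40 detected genes, 15 of them higher and 2, Lockd and Dubr, lower, with a median of 0.58. Of the 15, Snhg11, Jpx, Fendrr, Ptprv and D430019H16Rik had no probe above background on all arrays. Over all detected probes of other lncRNA genes on the array, 20.4% were higher and 10.5% lower.

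Endothelial cadherin, Cdh5, was the only cell type marker with such probes near it. Its own probe was above background in the control alone, and 4 lincRNA probes 45.8 to 45.9 kb away had changes of 0.48 to 1.28, with A_30_P01024986 at 1.28 ± 0.25.

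Promoter windows of RefSeq genes (GRCm38.p6, matched by sequence and not by coordinates) held 168 of the lincRNA probes, 95 of them detected, 41 in the direction of the gene and 58 against it, some in both. Within the window of Shoc2, a gene of the Ras pathway, the antisense probe A_30_P01030000 had changes of -1.52, -1.22 and -1.70 where Shoc2 had -0.11 at day 8, and in that of Mthfs, a folate enzyme gene, the sense probes A_30_P01022523 and A_30_P01029533 had -1.20 and -1.11 where Mthfs had -0.58. Antisense to the start of Snhg17, a snoRNA host gene, A_30_P01033531 was above background in the control alone and at least 3.12-fold lower at day 8, where Snhg17 had 0.69.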

How the data were processed

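RNA from untreated CMPs and from OSKM-CMPs at days 4, 6 and 8 was labelled with Cy3 and hybridised to 1 Agilent one-colour mouse array each. The deposited intensity values are those of Agilent Feature Extraction, version 10.7.3.1 per the file headers and 9.5.3 per the labels. That software subtracted the local background, corrected for surface trends and left the arrays unscaled against each other. A second deposited table holds log2 values that the authors normalized in GeneSpring, shifting each array by a constant, and it served as an alternative only.

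Outlier spots were left out, repeated spots averaged, and log2 of the processed signal taken relative to the 75th percentile of each array. The filter asked for a signal well above background on 1 array or more, and 2-fold was the threshold. With 1 array per condition there is no test, and the number of arrays limits the precision. A probe not well above background in the control or at day 8 has only a bound ("at least N-fold"), the brighter level over the higher of the dim array's lowest well-above signal and the probe's own. Counts at 2-fold use the measured values of such probes. All 4 arrays were used, and 0 columns of samples were left out.

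Positions are those of the array files (mm9). Other probes were named through RefSeq (GRCm38.p6, names only), 26864 of them matched on an accession, 3746 on the symbol and 623 on an older synonym, while 8197 had no match. Distances run between probe centres, and the change of a gene is the mean over its detected probes. Promoter windows are 32851 RefSeq sequences, searched for whole probe sequences.

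Probes named in the text are the 10 largest rises and 10 largest falls among those detected on all arrays and changed the same way at each day, the 5 largest bounds for probes seen on all OSKM-CMP arrays or in the control alone, the 5 largest peaks at day 4, the 5 intervals with the most detected probes, the 10 closest pairs with a gene, and up to 5 per list of nearby genes (adipocyte, cell cycle, contractile, matrix, interferon, developmental transcription factor, known lncRNA, cell type markers). Pairs on chromosome 18 and a few identical probes among these are given no values. Some further results that these rules name are not reported here. Other probes of their loci, the intervals with at least 4 agreeing probes and the split of the NEAT2 interval were chosen after their values were seen. The probe set and the lists were chosen with earlier results of these data known.

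Alternatives were quantile normalization, normexp (offset 50) with quantile normalization, the array median, the authors' values, other filters, thresholds and distances. R 4.3.3 with limma 3.58.1 and Python 3.11.15 with pandas 2.3.3, numpy 2.4.6, matplotlib 3.10.9 and scipy 1.17.1 were used, and the scripts were tested on simulated data.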

Additional observations from a re-analysis of the deposited data

How the results depend on the processing

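Among probes chosen by the naming rules, no change past 2-fold at day 8 turned its sign under the alternative scalings. Other probes, and days 4 and 6, were not checked for sign. Most counts moved, and the small positive median change of the detected lincRNA probes at day 8 was below 0 under some alternatives. Normexp with quantile normalization gave 84 higher and 79 lower probes at day 4, 112 and 92 at day 6 and 180 and 103 at day 8, with a median change of -0.009152 at day 8. It gave 9 and 7 from day 4 to 6 and 6 and 7 from day 6 to 8, early classes of 67 and 57, late of 113 and 46 and passing of 24 and 30 (higher, then lower), 0 intervals past 2-fold the same way on both strands and 29 on 1 strand. Quantile normalization moved the median at day 8 to -0.0316. The array median gave medians of -0.12, -0.11 and -0.13 at days 4, 6 and 8, 863 lower probes at day 8, 392 late falls and 59.9% of pairs in the direction of the gene. Requiring detection on all arrays gave 311 and 194 at day 4, 427 and 223 at day 6, 607 and 217 at day 8, steps of 45 and 19 and of 47 and 25, and classes of 258 and 111 (early), 349 and 106 (late) and 98 and 125 (passing). Without a filter the counts were 1644 and 1237, 1639 and 1409, and 2304 and 1169, the median at day 8 -0.0484 and the share of pairs 55.4%. With dim values set at the lowest signal above background they were 541 and 385 at day 4 and 668 and 405 at day 6. With 1 value per interval and strand they were 344 and 259, 350 and 293, and 518 and 227. A 1.5-fold threshold gave 1643 and 1281, 1802 and 1463, and 2408 and 1125, and a 4-fold one 243 and 188, 260 and 219, and 438 and 166. Pairs within 10 kb gave a share of 65.6%, and pairs in which both were past 2-fold 82.5%. The looser flag of a positive and significant signal held for 11357, 11494, 11114 and 11986 lincRNA probes on the control, day 4, day 6 and day 8 arrays. For the fewer calls after a stricter filter, threshold or unit, the construction is the cause, and for the others the cause was not tested. The remaining 66 summary values stayed within 1.5 times or within their error. Of the values of single probes 152 stayed within the error and 80 moved. The steps between OSKM-CMP arrays, the named lincRNAs under each scaling, pairs without shared bases and 1 pair per interval and gene were added after the data had been seen.

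No paired analysis was possible because the design holds a single sample per condition. Signals near background limit the counts, and their errors cover the array and not cultures, animals or RNA preparation. No change has a replicate check.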
